A study of Mus musculus with 2 samples.

Results

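The genes described here are the matrix metalloproteinases (MMPs), the ADAM and ADAMTS metalloproteinases and the tissue inhibitors of metalloproteinases (TIMPs), followed across the cells of healing skin wounds in aged and young mice. They were chosen by symbol alone: every gene of the deposited feature table named Mmp, Timp, Adamts or Adam with a number and at most 1 closing letter, which gave 80 of 33696 genes. These were 23 MMPs, 4 TIMPs, 34 ADAMs and 19 ADAMTS genes. Of the 80, 72 had at least 1 UMI, 64 had at least 20 and 39 had at least 1000. The 8 genes with no UMI in either library were Adam6a, Adam6b, Adam20, Adam24, Adam26a, Adam26b, Adam34l and Adam39. Another 8 had between 1 and 19 UMIs and are not compared: Adam1b, Adam25, Adam29, Adam34, Mmp1a, Mmp7, Mmp20 and Mmp21.

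Single cells were taken 6 days after wounds of 10 mm were cut through the whole thickness of the back skin of wild-type male C57BL/6 mice. The aged library came from mice of 24 months and the young library from mice of 2 months. Each pooled cells of several animals, whose number is not given in the sources used here. The wounds were digested with collagenase and dispase, and droplet 3′ sequencing counted transcripts as unique molecular identifiers (UMIs). The study concerns the senescence response of the wound with age. Since each age is 1 library, no test compares the ages, and effects of age, of the pooled animals and of preparation cannot be told apart. Ranges in brackets after a value are its 95% interval and reflect counting error alone.

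The aged library held 4379 barcodes with 107865898 UMIs and the young library 4932 with 111810068, and 3 barcodes were found in both. After filtering, 4210 aged and 4661 young cells remained. Cells were put into classes by fixed marker genes, none of them a member, and the names below carry "-like" for that reason. There were 1490 aged and 1594 young fibroblast-like cells, 1195 and 794 macrophage- or monocyte-like cells, and 997 and 1430 neutrophil-like cells, and ratios are given for these 3 classes. Their median depths were 49684 and 41943, 12490 and 16058, and 4304 and 5615 UMIs per cell in the aged and the young library. Smaller classes were T and NK cell-like (40 aged and 331 young cells), blood endothelial-like (52 and 72), dendritic-like (56 and 26) and osteoclast-like (22 and 49), and 333 aged and 248 young cells fitted no class. Keratinocyte-like cells, the cells of the epidermis, numbered 1 aged and 10 young, so the epidermal sources of these enzymes are hardly sampled.

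MMPs are zinc endopeptidases, secreted or held at the cell membrane as inactive proenzymes, which between them cut the collagens, proteoglycans and glycoproteins of the matrix. The TIMPs bind the active site of these enzymes and block it. ADAMs are membrane-anchored relatives that shed the outer parts of cytokines, growth factors and receptors, and ADAMTS enzymes are secreted relatives that cut proteoglycans such as versican and aggrecan or trim procollagens. In skin wounds MMPs are known for clearing damaged matrix and for letting cells migrate, and TIMPs for limiting that breakdown.

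Fibroblast-like cells were the main source of the family. Levels are given as CPM, the UMIs of a gene out of 1000000 UMIs of all genes in the cells of a class in 1 library. As each transcript is counted once at its 3′ end, no length correction was made, although capture can differ between genes. The members together gave 799047 UMIs in aged and 724949 in young fibroblast-like cells, an aged/young CPM ratio of 1.01. They summed to 2916 CPM in aged and 3329 CPM in young macrophage-like cells, and to 1125 and 1364 CPM in neutrophil-like cells. Fibroblast-like cells had the highest level of 32 of the 64 members with 20 UMIs in the aged library and of 31 in the young one. Blood endothelial-like cells came next, highest for 11 aged and 13 young, and the highest class was the same in both libraries for 48 of the 64.

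**Figure D1:**
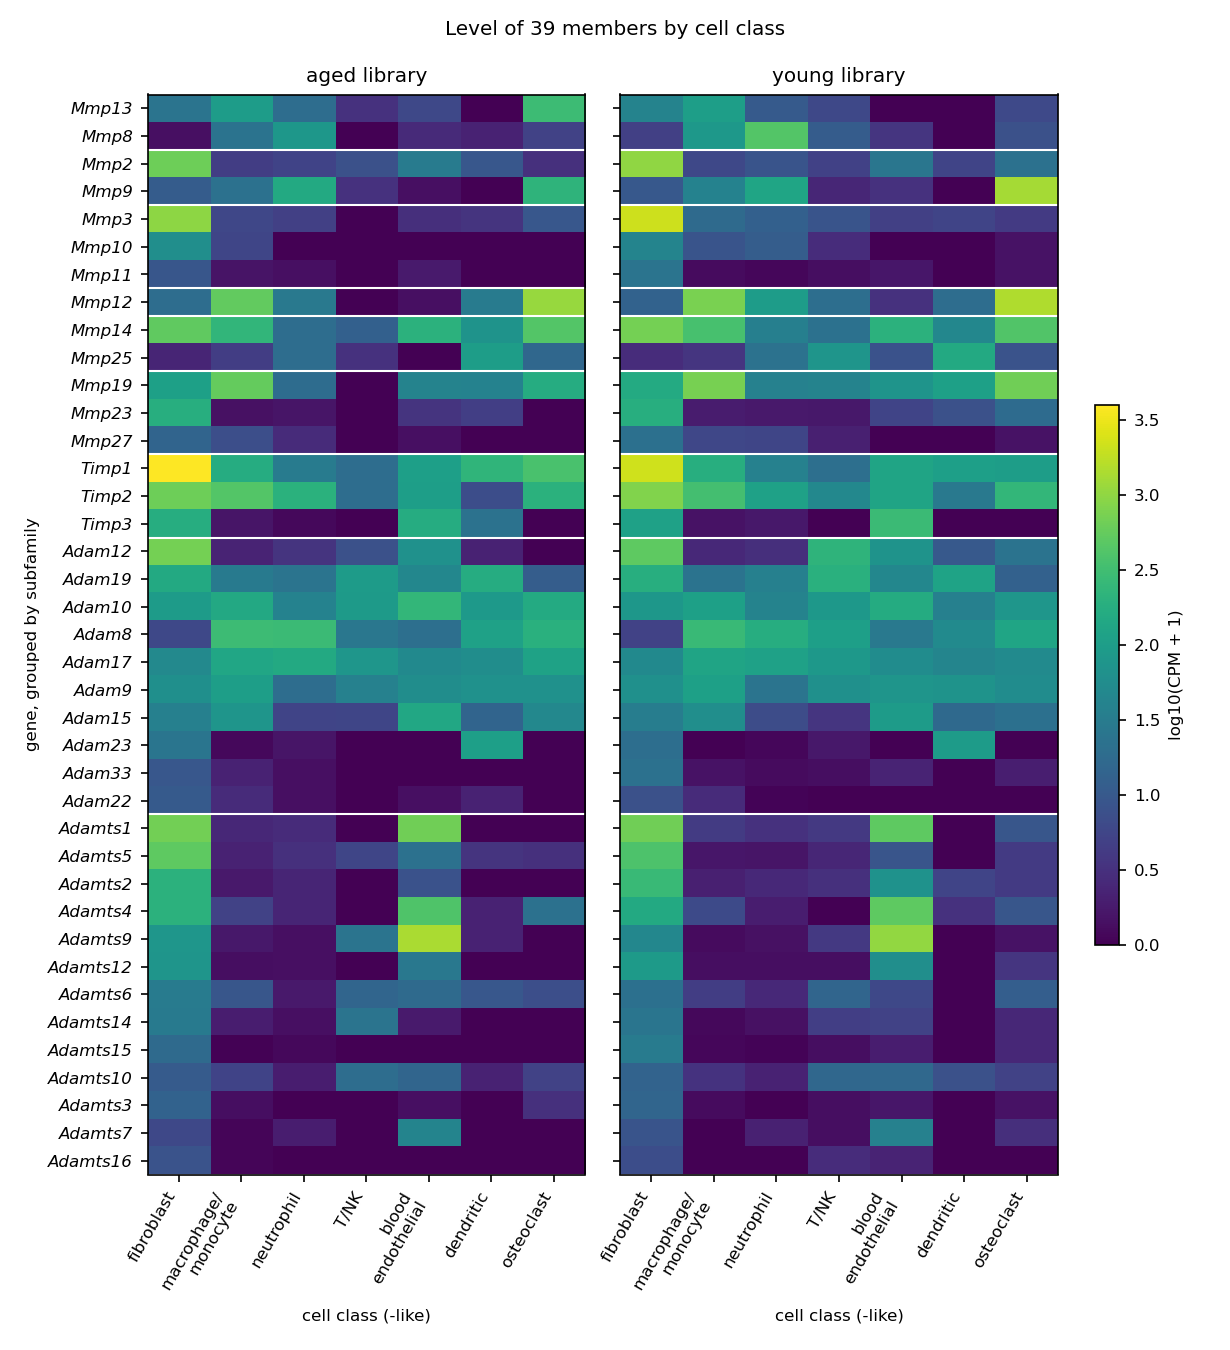
Level of the 39 members with at least 1000 UMIs, as log10(CPM + 1), in 7 cell classes (columns), with the aged library on the left and the young library on the right; white lines part the subfamilies. Timp1 and Mmp3 were brightest in fibroblast-like cells, Mmp12 in macrophage- and osteoclast-like cells, Mmp8 in neutrophil-like cells, and Adamts9 in blood endothelial-like cells.

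The balance between inhibitors and MMPs differed between the libraries more than the total did. In fibroblast-like cells the summed MMP level was 2564 CPM in the aged library and 4357 CPM in the young one, a ratio of 0.588 (0.585 to 0.592). The summed TIMP level was 4713 CPM in aged and 3111 CPM in young fibroblast-like cells, a ratio of 1.51 (1.51 to 1.52). There were 1.84 TIMP UMIs per MMP UMI in aged and 0.714 in young fibroblast-like cells. Timp1 and Mmp3 carried most of that difference, since without both genes the figures were 0.508 and 0.42. The summed levels of the other families lay closer together, with aged/young ratios of 1.19 for ADAMs and 1.08 for ADAMTS genes.

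The aged library had more TIMP UMIs per MMP UMI in 6 of the 7 classes plotted. The figures were 0.397 in aged and 0.245 in young macrophage-like cells, and 0.662 in aged and 0.192 in young neutrophil-like cells. Blood endothelial-like cells were the exception, with 1.17 in the aged and 1.53 in the young library. Of these cells 6 of 52 aged and 21 of 72 young ones also scored for a second class. The 8 fibroblast markers summed to 474 CPM in the aged and 1212 CPM in the young cells, and the 8 neutrophil markers to 40.0 and 516 CPM, and their part in the exception was not tested. The T and NK cell-like value of the aged library rests on 16 TIMP and 11 MMP UMIs. The osteoclast-like class differed in makeup, with 5 of 22 aged and 31 of 49 young cells in osteoclast-like cluster 22. Macrophage-like cluster 6 held 14 aged and 5 young cells of that class. Within the fibroblast-like class the aged value was above the young one in each of the 9 clusters with at least 20 cells per library, from 0.455 against 0.413 in cluster 13 to 5.35 against 3.69 in cluster 4.

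**Figure D2:**
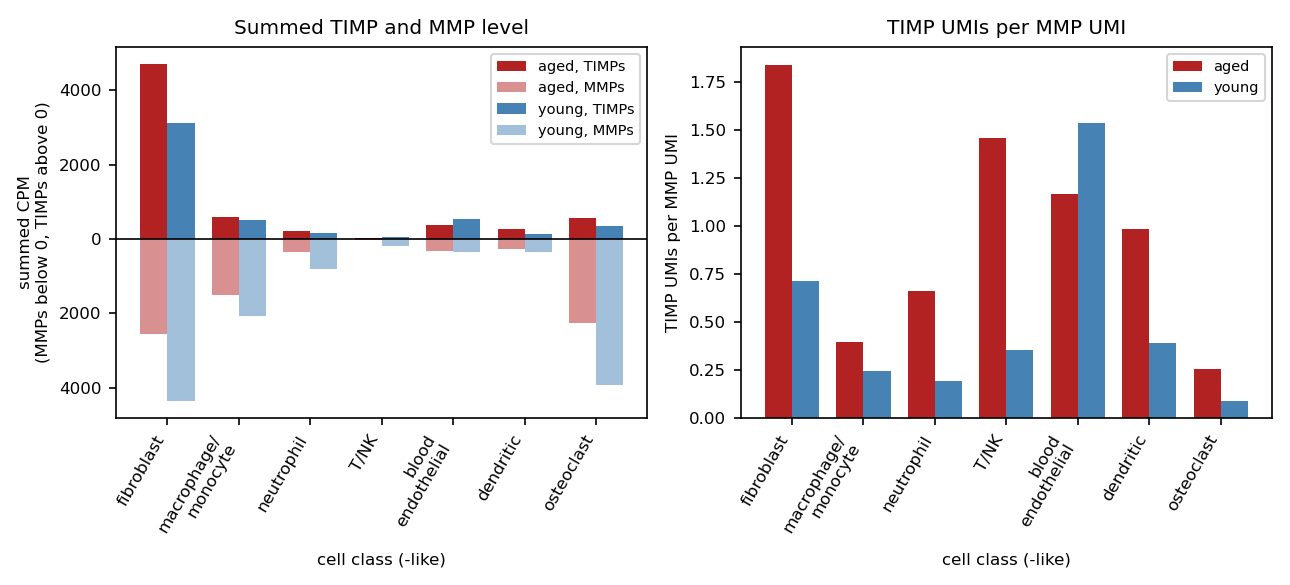
Left, summed level in CPM of the TIMPs (above 0) and the MMPs (below 0) in 7 cell classes, with the aged library left of the young one; right, TIMP UMIs per MMP UMI in the same classes. Fibroblast-like cells had 1.84 TIMP UMIs per MMP UMI in the aged and 0.714 in the young library, and blood endothelial-like cells went the other way, at 1.17 and 1.53.

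Counted gene by gene, a member was called when its ratio was 1.5 or more in either direction with at least 20 UMIs over both libraries. In fibroblast-like cells 10 of 59 members were called higher in the aged library and 12 lower, against 11.6% higher and 8.33% lower over all 18318 genes tested. None of the 19 MMPs tested there was called higher and 8 were called lower (Mmp1b, Mmp2, Mmp3, Mmp8, Mmp11, Mmp13, Mmp15 and Mmp28). Several of the 8 were sparse. Mmp15 had 0.129 CPM in aged and 0.225 CPM in young fibroblast-like cells. Blood endothelial-like cells held 80% of its aged and 66.3% of its young UMIs. Over all cells kept Mmp28 had 74 aged and 86 young UMIs, and Mmp1b had 21 and 46. Of the 3 TIMPs tested in fibroblast-like cells 2 were called higher and none lower. The ADAMs gave 4 higher and 2 lower of 19, and the ADAMTS genes 4 higher and 2 lower of 18. In macrophage-like cells 7 of 32 members were called higher and 6 lower, against 19.7% and 5.83% over 13043 genes, and the 13 MMPs tested gave 1 higher and 5 lower. In neutrophil-like cells 4 of 24 were called higher and 10 lower, against 22.5% and 11.2% over 10456 genes. There the 11 MMPs gave 1 higher (Mmp13) and 8 lower (Mmp2, Mmp3, Mmp8, Mmp10, Mmp12, Mmp14, Mmp19 and Mmp27). Of these only Mmp8 had its highest level in neutrophil-like cells in either library, and the part of carried-over RNA was not tested. The median log2 ratio of the members was 0.01, -0.04 and -0.38 in these 3 classes, against 0.09, 0.25 and 0.20 over all genes. Scaling by trimmed means (TMM) lowered every log2 ratio by 0.09 in fibroblast-like, 0.23 in macrophage-like and 0.24 in neutrophil-like cells, so ratios near the threshold depend on the scaling. Under it the members called higher and lower were 8 and 15 in fibroblast-like, 6 and 12 in macrophage-like, 2 and 13 in neutrophil-like cells, and 10 and 14 over all kept cells. No share over all genes is given under this scaling, so these counts cannot be set against the unscaled percentages of this paragraph. Over all kept cells 14 of 64 members were higher and 12 lower, against 11.0% and 10.5% of 20121 genes, but these totals mix the makeup of a library with the level per cell.

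Mmp3, stromelysin-1, which cuts many matrix proteins and activates other proMMPs, was the most abundant MMP of the wound and came almost wholly from fibroblast-like cells, which held 99.8% of its aged and 99.5% of its young UMIs. It stood at 958 CPM in aged and 2147 CPM in young fibroblast-like cells, a ratio of 0.446 (0.442 to 0.45). Among single cells the median level was 2.02 in aged and 11.1 in young cells per 10000 UMIs. After each cell was thinned to 2000 UMIs, which left out 38 aged and 45 young cells, an Mmp3 UMI was found in 44.8% of aged (42.2 to 47.4) and 65.9% of young cells (63.5 to 68.3), and unthinned in 76.0% and 84.4%. In neutrophil-like cells, thinned alike, the share was 0.666% in the aged and 2.48% in the young library, which marks the background.

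The other stromelysins were far less abundant, and their ratios lay on different sides of 1. Mmp10, stromelysin-2, had 59.0 CPM in aged and 41.1 CPM in young fibroblast-like cells, a ratio of 1.43, with 33.2% of the aged and 32.9% of the young UMIs in 10 cells. Its aged level was above the young one in only 4 of 8 clusters, with ratios between 0 in cluster 13 and 2.07 in cluster 1. In neutrophil-like cells it had 0 aged and 121 young UMIs, and the young ones lay in 2 cells. Mmp11, stromelysin-3, which matures inside the cell, had 8.26 CPM in aged and 23.6 CPM in young fibroblast-like cells, a ratio of 0.351 (0.32 to 0.384). Without cluster 13, in which Mmp11 was highest, that ratio was 0.456. Chchd10 lies against Mmp11 on the other strand and had 555 aged and 2542 young UMIs over all cells. The sources used here do not say that counting used strand, so reads of the overlap cannot be told apart.

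Mmp3 and Mmp10 sit in a run of 10 MMP genes on chromosome 9, in the order Mmp13, Mmp12, Mmp1b, Mmp3, Mmp1a, Mmp10, Mmp8, Mmp27, Mmp20 and Mmp7. The starts of 8 of the 10, all but Mmp8 and Mmp27, share a feature that the choice of genes did not use. The letters TGANTCA, a core to which AP-1 factors (Fos and Jun) are known to bind, were searched between 250 bases before and 50 bases after each gene start in the RefSeq promoter table (build GRCm38.p6). These letters are their own reverse complement, so a match counts for both strands. They were found in 8 of the 18 MMP genes that the table holds, all 8 of them on chromosome 9, and in 23.6% of the 55 promoters of members (50 genes), against 7.81% of all 32851 promoters. The promoters of Mmp3, Mmp10, Mmp12 and Mmp13, neighbours with different ratios in fibroblast-like cells, and of Timp1 are shown on the plus strand with TGANTCA in capitals. All 5 genes are read from that strand, and for Mmp12, which has 2 starts listed, the one that holds the letters is given.
Mmp3 (chr9:7445572-7445871): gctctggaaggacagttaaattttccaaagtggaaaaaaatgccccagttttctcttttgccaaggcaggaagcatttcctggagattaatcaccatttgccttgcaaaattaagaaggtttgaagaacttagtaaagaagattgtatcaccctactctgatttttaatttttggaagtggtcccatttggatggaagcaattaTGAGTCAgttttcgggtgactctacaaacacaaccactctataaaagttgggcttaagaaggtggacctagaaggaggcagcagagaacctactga
Mmp13 (chr9:7272264-7272563): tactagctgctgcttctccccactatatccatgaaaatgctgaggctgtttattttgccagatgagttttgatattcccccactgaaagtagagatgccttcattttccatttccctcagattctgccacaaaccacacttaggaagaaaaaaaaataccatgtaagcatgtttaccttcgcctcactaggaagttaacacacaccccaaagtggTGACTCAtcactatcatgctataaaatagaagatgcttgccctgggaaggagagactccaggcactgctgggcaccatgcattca
Mmp10 (chr9:7502092-7502391): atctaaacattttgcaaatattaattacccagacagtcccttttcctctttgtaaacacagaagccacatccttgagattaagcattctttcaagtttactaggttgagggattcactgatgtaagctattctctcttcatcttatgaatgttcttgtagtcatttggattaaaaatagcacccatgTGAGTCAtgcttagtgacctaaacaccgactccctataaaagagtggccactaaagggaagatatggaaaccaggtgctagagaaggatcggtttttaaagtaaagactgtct
Mmp12 (chr9:7347124-7347423): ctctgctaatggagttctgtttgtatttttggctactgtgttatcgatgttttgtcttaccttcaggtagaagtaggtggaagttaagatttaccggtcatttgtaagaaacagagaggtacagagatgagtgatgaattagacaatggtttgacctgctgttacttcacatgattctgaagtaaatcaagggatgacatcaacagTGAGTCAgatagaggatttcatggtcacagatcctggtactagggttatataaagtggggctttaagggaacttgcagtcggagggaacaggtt
Timp1 (chrX:20869916-20870215): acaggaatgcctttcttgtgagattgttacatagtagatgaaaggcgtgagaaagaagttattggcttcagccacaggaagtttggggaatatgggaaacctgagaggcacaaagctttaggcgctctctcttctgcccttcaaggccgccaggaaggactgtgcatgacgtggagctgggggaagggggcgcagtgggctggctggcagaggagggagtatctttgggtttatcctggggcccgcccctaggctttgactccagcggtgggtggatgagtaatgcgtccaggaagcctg

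The match began 46 bases before the start in Mmp3, 63 in Mmp10, 44 in Mmp12 and 35 in Mmp13, and the Timp1 window held no exact match. Variants of these letters were not searched, so a window without a match may still hold an AP-1 site. A match is a description of letters and not a measured site. The aged/young ratios of these neighbours in fibroblast-like cells were 0.446 for Mmp3, 0.588 for Mmp13, 1.43 for Mmp10 and 1.44 for Mmp12. For Mmp10 the ratio was above 1 in 4 of 8 clusters. The Mmp12 value rests on UMIs in 69 aged and 68 young fibroblast-like cells, its cluster ratios ran between 0.029 and 75.2, and in macrophage-like cells its ratio was 0.73.

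Mmp2, gelatinase A, which cuts denatured collagen and basement membrane collagen, came next to Mmp3 in abundance among the MMPs of fibroblast-like cells. It had 645 CPM in aged and 1014 CPM in young fibroblast-like cells, a ratio of 0.636 (0.629 to 0.643). It was found in nearly all of these cells, with 3.83% of aged and 3.26% of young ones lacking a UMI, so the lower level is spread over the class. The aged level was below the young one in 7 of 9 clusters, and with clusters weighted equally the ratio of 0.704 no longer passed 1.5-fold. Mmp9, gelatinase B, belonged to other cells. Osteoclast-like cells had the highest level, at 221 CPM in 22 aged and 1289 CPM in 49 young cells. Of these, 5 aged and 31 young cells lay in cluster 22, led by Acp5 and Atp6v0d2. Macrophage-like cluster 6 held 14 and 5 of them, so these 2 levels do not compare like cells. Neutrophil-like cells followed, with 152 CPM in the aged and 130 CPM in the young library. In neutrophil-like cells the Mmp9 ratio of 1.17 became 0.991 under TMM scaling. In fibroblast-like cells Mmp9 was carried by few cells, with 65.3% of aged and 63.9% of young UMIs in 10 cells.

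Of the collagenases, which cut fibrillar collagen, Mmp8 showed the widest gap. Mmp8, neutrophil collagenase, is made in neutrophil precursors and stored in granules. It had 413 UMIs or 79.3 CPM in aged and 4908 UMIs or 431 CPM in young neutrophil-like cells, a ratio of 0.184 (0.166 to 0.204). After thinning to 2000 UMIs, 8.55% of aged (6.8 to 10.6) and 28.6% of young neutrophil-like cells (26.2 to 31.1) had a UMI, with 96 aged and 98 young cells left out as too shallow. Unthinned, 15.8% and 45.4% did.

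The lower level held in each of the 4 clusters that hold most neutrophil-like cells, of which clusters 9 and 12 were left unnamed. It was 35.9 CPM in aged and 179.5 CPM in young cells of cluster 9, led by Il23a and Tnf, and 122.5 CPM in aged and 1187 CPM in young cells of cluster 10, led by Cxcr2. In cluster 11, led by Stfa2l1, it was 62.5 and 387 CPM, and in cluster 12, led by Muc3 and Syne1, it was 108 and 585.5 CPM. Mmp9, another granule MMP, did not follow it, with ratios of 0.892 in cluster 9, 0.937 in cluster 10, 1.15 in cluster 11 and 2.84 in cluster 12. Mmp25 lay below 1 in the neutrophil-like cells of all 4 clusters, with ratios between 0.499 and 0.965. The summed level of the 8 neutrophil markers used for the gate was also lower in the aged cells, at 55226 CPM against 88694 CPM in the young cells, and its part in the Mmp8 difference was not tested.

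Mmp8 was lower in the aged library in the other main classes too. It had 22.3 CPM in aged and 82.8 CPM in young macrophage-like cells, a ratio of 0.27 (0.239 to 0.303), with 41.4% of the aged and 32.4% of the young UMIs in 10 cells. Neutrophil markers summed to 472 CPM in aged and 776 CPM in young macrophage-like cells, so both moved the same way, and the part of free or carried-over neutrophil RNA was not tested. In fibroblast-like cells Mmp8 had 30 aged and 275 young UMIs, and it was highest in cluster 13, at 8.95 CPM in aged and 33.8 CPM in young cells. There neutrophil markers summed over the whole class to 93.5 CPM in aged and 254.5 CPM in young cells.

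**Figure D3:**
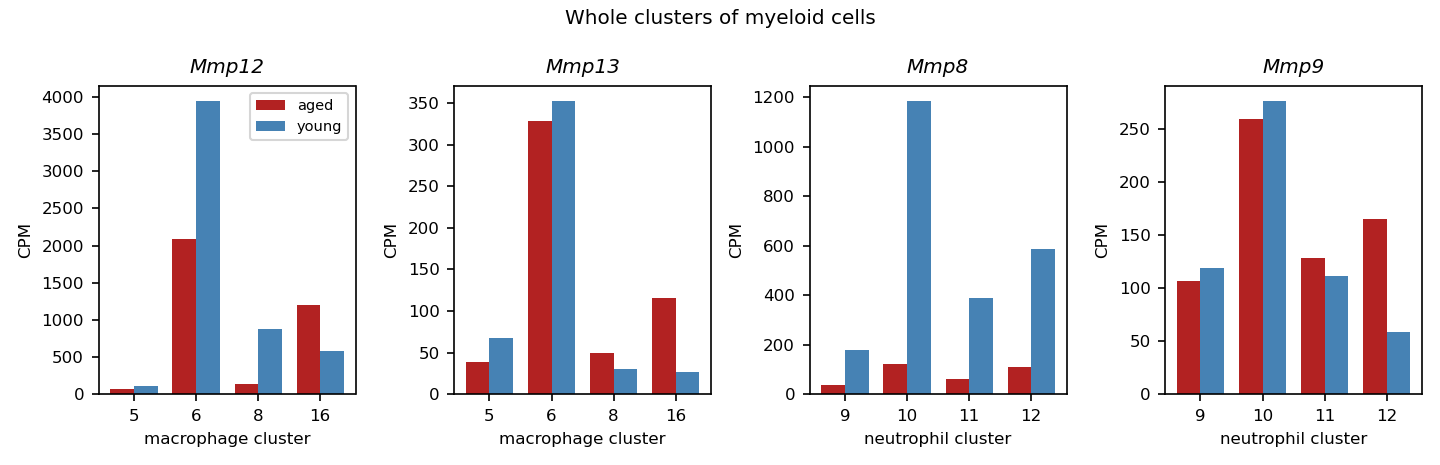
Level in CPM of Mmp12 and Mmp13 in the 4 macrophage-like clusters and of Mmp8 and Mmp9 in the 4 clusters that hold most neutrophil-like cells, over all cells of a cluster, with the aged library left of the young one. Mmp8 was lower in the aged library in all 4 clusters (from 35.9 against 179.5 CPM to 122.5 against 1187 CPM), Mmp9 was lower in 2 and higher in 2, and Mmp12 was lower in clusters 5, 6 and 8 but higher in cluster 16.

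Mmp13, collagenase-3, the main interstitial collagenase of rodents, was found in few cells of several classes. In fibroblast-like cells it had 23.1 CPM in the aged and 39.3 CPM in the young library, a ratio of 0.588, with UMIs in 98 aged and 122 young cells and 63.9% and 54.0% of them in 10 cells. With clusters weighted equally the ratio was 0.695, which does not pass 1.5-fold. In macrophage-like cells it had 97.5 and 103 CPM in the aged and the young library. The rodent genes Mmp1a and Mmp1b, related to human MMP1, had 8 and 21 UMIs in the aged and 5 and 46 in the young library, and reads of Mmp1b cannot be told apart from those of Mmp12, which overlaps it on the other strand.

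Mmp12, macrophage metalloelastase, which cuts elastin, stood with Mmp19 at the head of the MMPs of macrophage-like cells. It had 546 CPM in aged and 747 CPM in young macrophage-like cells, a ratio of 0.73 (0.71 to 0.751). A UMI was found in 21.6% of aged and 21.2% of young macrophage-like cells, so the gap lies in the amount per positive cell more than in their share. Thinned to 2000 UMIs, 15.9% of aged (13.8 to 18.1) and 13.5% of young cells (11.2 to 16.2) had one. The marker gate missed much of this gene, since ungated cells held 34.4% of its aged and 44.4% of its young UMIs, at 1866 and 3838 CPM.

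The gene was therefore also read in whole clusters, which were made without the members. Cluster 6, which Mmp12 and Mmp13 led among all genes, had 2094 CPM in 324 aged and 3952 CPM in 276 young cells, a ratio of 0.53 (0.517 to 0.543). It also held 85 aged and 107 young ungated, 14 and 5 osteoclast-like, and 7 and 15 neutrophil-like cells. In its macrophage-like cells alone the gap was narrower, at 1821 CPM in the aged and 2631 CPM in the young library. Cluster 8, led by MHC class II genes, had 131 CPM in aged and 879 CPM in young cells, a ratio of 0.149. Whole cluster 8 also held 0 aged and 10 young osteoclast-like, 4 and 16 neutrophil-like, and 16 and 22 ungated cells, and in its macrophage-like cells alone the ratio was 0.531. Cluster 16, led by Arg1, the arginine-degrading enzyme of alternatively activated macrophages, went the other way, with 1200 CPM in 357 aged and 585 CPM in 177 young cells, a ratio of 2.05 (1.95 to 2.16). Mmp13 likewise had 116 CPM in aged and 26.2 CPM in young cells of cluster 16, a ratio of 4.42, against 329 and 353 CPM in cluster 6. Cluster 16 held 94 aged and 29 young ungated cells, and in its macrophage-like cells alone the ratios were 1.64 for Mmp12 and 2.47 for Mmp13.

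Mmp12 UMIs in neutrophil-like cells, 145 aged and 1107 young, were concentrated in 10 cells to 97.2% and 98.2%, and their ratio of 0.287 became 24.0 in neutrophil clusters, so no difference is read for that class. Osteoclast-like cells had 1114 CPM in the aged and 1491 CPM in the young library. Mmp7, matrilysin, an epithelial enzyme, had 0 aged UMIs and 1 young UMI.

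Mmp19, a secreted MMP of the matrix, was spread over macrophage-like cells more evenly than Mmp12. It had 553 CPM in aged and 722 CPM in young macrophage-like cells, a ratio of 0.766 (0.744 to 0.788). Over whole clusters its levels were highest in cluster 5, led by Ccl8 and Cbr2, at 819.7 CPM in aged and 1124 CPM in young cells, and in cluster 8, at 780.2 and 1042 CPM. In cluster 16 it had 91.6 CPM in aged and 187 CPM in young cells, a ratio of 0.491, so that Mmp19 was lower in the cluster where Mmp12 was higher.

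Mmp14, the membrane-type MMP that cuts collagen at the cell surface and activates proMMP2 with the help of Timp2, was high in all main classes but neutrophil-like cells. It had 530 CPM in aged and 701 CPM in young fibroblast-like cells, a ratio of 0.756 (0.746 to 0.766), and 236 and 351 CPM in macrophage-like cells, a ratio of 0.672. In macrophage-like cells the aged level was below the young one in all 5 clusters with enough cells. Fibroblast-like cells of cluster 13 stood out with 673 CPM in the aged and 1513 CPM in the young library. Mmp23 had 182 CPM in aged and 180.4 CPM in young fibroblast-like cells, a ratio of 1.01 (0.983 to 1.03), the closest match among the abundant MMPs.

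The leukocyte-type Mmp25 was highest in dendritic-like cells, at 101 CPM in 56 aged and 154 CPM in 26 young cells, and had 18.2 CPM in aged and 22.1 CPM in young neutrophil-like cells. Mmp16, another membrane-type MMP, had 262 aged and 273 young UMIs in fibroblast-like cells and none in macrophage-like cells. Mmp27 had 1053 aged and 1428 young UMIs in fibroblast-like cells, a ratio of 0.677, which is not past 1.5-fold and became 1.03 with clusters weighted equally.

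Timp1, the secreted inhibitor that is induced in activated fibroblasts and binds proMMP9, was the most abundant gene of the family. It had 302505 UMIs or 3897 CPM in aged and 155457 UMIs or 2182 CPM in young fibroblast-like cells, a ratio of 1.79 (1.78 to 1.80). The median cell had 23.9 Timp1 UMIs per 10000 in the aged and 13.1 in the young library, so the difference was not carried by a few cells. After thinning, a Timp1 UMI was found in 85.5% of aged and 79.7% of young cells. In macrophage-like cells the levels were 168 and 179 CPM. Timp1 overlaps Syn1 on the other strand, whose 615 aged and 434 young UMIs are few beside it.

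Timp1 and Mmp3 peaked in different clusters of fibroblast-like cells. Timp1 was highest in cluster 4, led by Il11, at 8664 CPM in 164 aged and 5266 CPM in 77 young cells, and there Mmp3 was lowest, at 231 and 150 CPM. Mmp3 was highest in cluster 1, led by Cxcl14, Apod and C7, at 3071 CPM in 187 aged and 4684 CPM in 398 young cells, where Timp1 had 1731 and 1591 CPM. The aged level of Timp1 was above the young one in 8 of 9 clusters, with ratios up to 2.01 in cluster 14. Cluster 13, led by Igfbp2, Wfdc12 and Coch, was the exception, with 131 CPM in 30 aged and 852 CPM in 117 young cells, a ratio of 0.153. The aged level of Mmp3 was below the young one in 7 of 9 clusters, the exceptions being cluster 4, at a ratio of 1.54, and cluster 15, a shallow unnamed cluster, at 1.16. As the clusters differ in their share of each library, both genes were also averaged with clusters weighted equally, which gave 1.52 for Timp1 and 0.604 for Mmp3.

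**Figure D4:**
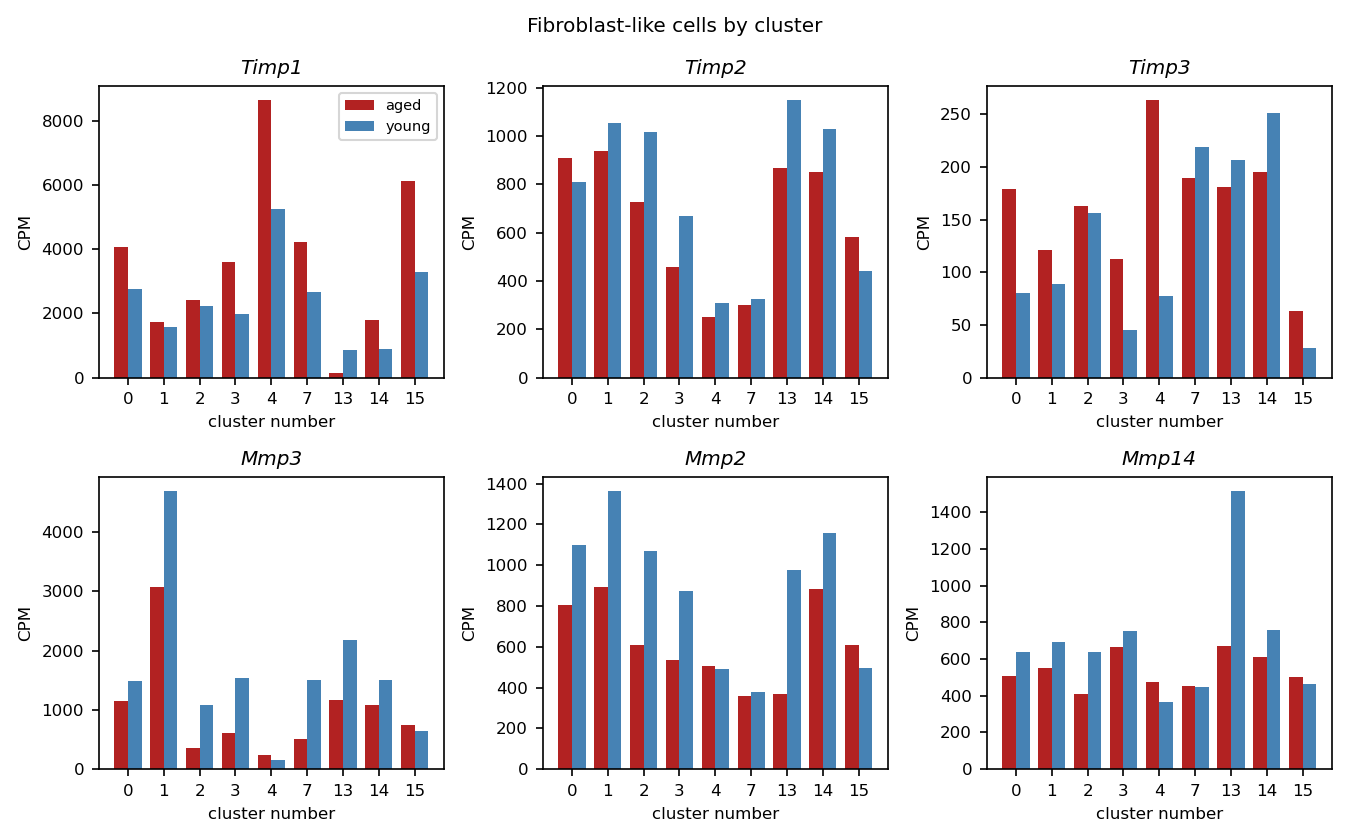
Level in CPM of 3 TIMP genes (top) and 3 MMP genes (bottom) in fibroblast-like cells of 9 clusters, numbered on the x axis, with the aged library left of the young one. Timp1 was higher in the aged library in every cluster shown but 13, Mmp3 was lower in every cluster but 4 and 15, and Mmp14 reached 1513 CPM in young cells of cluster 13.

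Timp2, which both blocks MMPs and bridges proMMP2 to Mmp14, had ratios on different sides of 1 by class. It had 643 CPM in aged and 815 CPM in young fibroblast-like cells, a ratio of 0.789 (0.78 to 0.798). Aged macrophage-like cells had 427 CPM and young ones 331 CPM, a ratio of 1.29 (1.24 to 1.34), but the aged level was above the young one in only 2 of 5 macrophage clusters, with ratios between 0.389 and 1.42. In neutrophil-like cells it had 197 CPM in the aged and 115 CPM in the young library, with a ratio of 1.71 (1.57 to 1.85) that became 1.44 under TMM scaling. Among these cells the aged level was above the young one in all 4 clusters that hold most of them. All of the proMMP2 trio of Mmp2, Mmp14 and Timp2 thus stood lower in aged fibroblast-like cells, while only Mmp2 passed 1.5-fold.

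Timp3, the matrix-bound inhibitor that also blocks ADAM17 and ADAMTS enzymes, had 173 CPM in aged and 114 CPM in young fibroblast-like cells, a ratio of 1.52 (1.48 to 1.56). That ratio was 1.42 under TMM scaling and 1.27 with clusters weighted equally, so its call does not hold. The clusters split, with 264 CPM in aged and 77.1 CPM in young cells of cluster 4, and 196 and 251 CPM in cluster 14. In blood endothelial-like cells it went the other way, at 168 CPM in 52 aged and 281 CPM in 72 young cells. Timp4, known from fat, heart and vessels, had 3 aged and 122 young UMIs, of which 69 young ones lay in 25 adipocyte-like, 25 in 30 pericyte-like and 16 in 72 blood endothelial-like cells. The aged library held 1 adipocyte-like and 5 pericyte-like cells, so no level can be compared there.

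**Figure D5:**
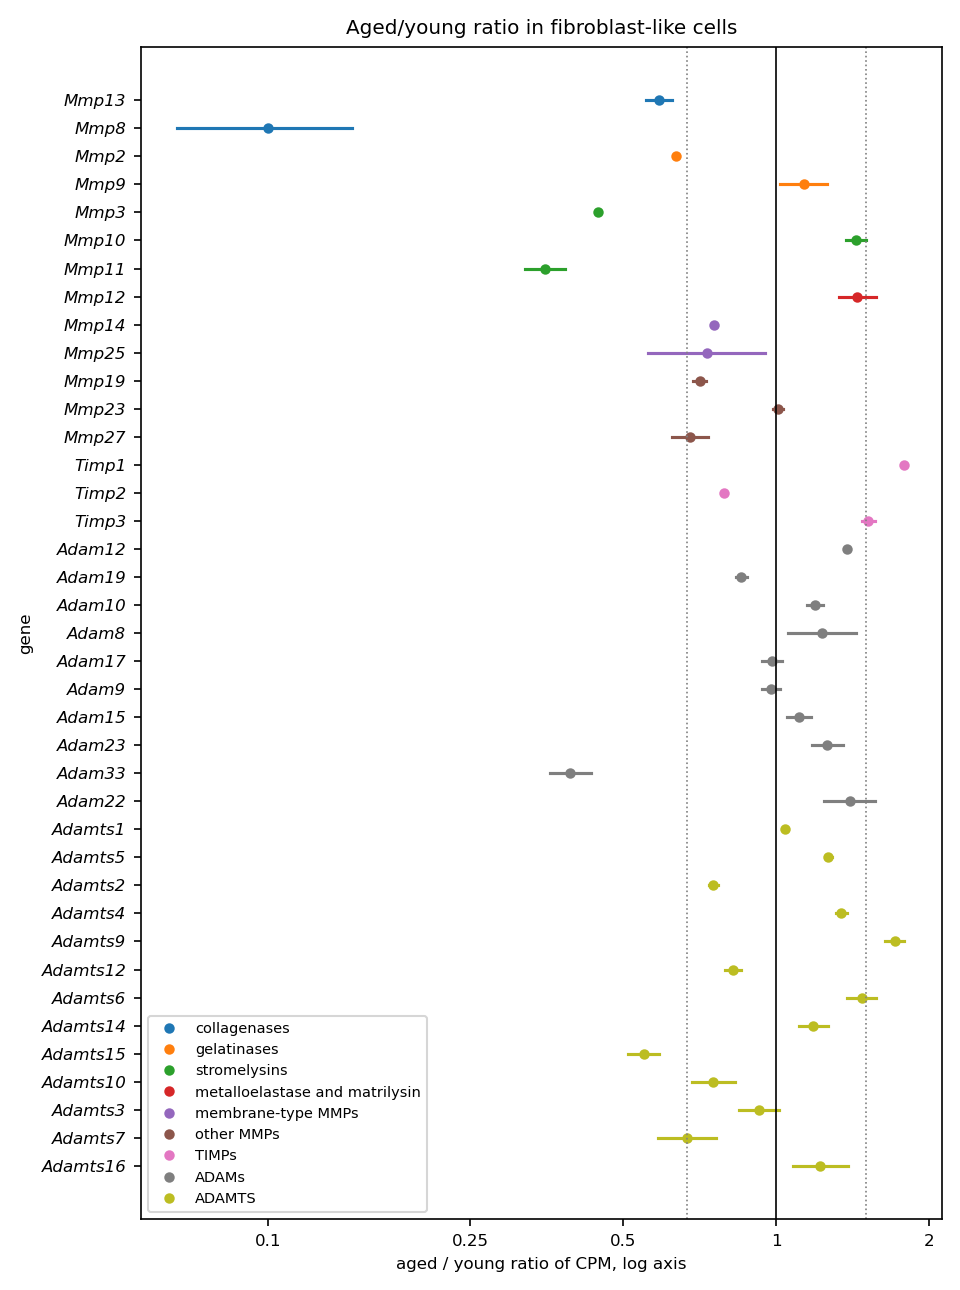
Aged/young ratio of CPM in fibroblast-like cells (log axis) for the 39 members with at least 1000 UMIs over all cells; bars are 95% counting intervals, often narrower than the point, and dotted lines mark 1.5-fold. Most MMPs lie left of 1. Timp1 (1.79), Adamts9 (1.71) and, by little, Timp3 lie beyond the right line, and Mmp8 (0.1), Mmp11 (0.351) and Adam33 (0.394) lie farthest left.

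Among the ADAMs, Adam12, a shedding enzyme of activated stromal cells, was the most abundant, with 696 CPM in aged and 504 CPM in young fibroblast-like cells, a ratio of 1.38 (1.36 to 1.4). It reached 1019 CPM in aged and 571 CPM in young cells of cluster 3, led by Tnn, Col12a1 and Lrrc15, and was low in cluster 13, at 40.6 and 155 CPM. Adam12 was also found in young T and NK cell-like cells, at 6.91 CPM in 40 aged and 216 CPM in 331 young cells. There it lay mainly in cluster 23, led by Trdc, Trdv4 and Il17a, genes of gamma-delta T cells, where 149 of 227 young cells had a UMI, at 311 CPM (286 to 337). Of the 5 aged cells in that cluster 2 had a UMI, too few to compare levels. In cluster 17, led by Ctla4 and Cd2, it had 15.2 CPM in 50 aged and 34.4 CPM in 128 young cells.

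Adam33, a gene of mesenchymal cells, stood at 8.41 CPM in aged and 21.4 CPM in young fibroblast-like cells, a ratio of 0.394 (0.359 to 0.432). Its UMIs were spread over 409 aged and 694 young cells, and the aged level was below the young one in 7 of 8 clusters. Adam10 and Adam17, the main sheddases of Notch receptors and of TNF, were found in every class at moderate levels. Adam10 had 95.05 CPM in aged and 79.7 CPM in young fibroblast-like cells, a ratio of 1.19, and 150 and 112 CPM in macrophage-like cells, a ratio of 1.34. Adam17 had 48.99 and 49.95 CPM in fibroblast-like cells, and 133 and 126 CPM in macrophage-like cells. Adam19 had 154 CPM in aged and 180.1 CPM in young fibroblast-like cells, a ratio of 0.854.

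Adam8, a sheddase of leukocytes, had 287 CPM in aged and 175 CPM in young neutrophil-like cells, a ratio of 1.64 (1.53 to 1.75), against 292 and 279 CPM in macrophage-like cells. By cluster it was 586 CPM in aged and 352 CPM in young cells of cluster 10, and 98.5 and 100.4 CPM in cluster 9. Under TMM scaling the neutrophil ratio was 1.38, which is not past 1.5-fold. Adam23 had 106 CPM in 56 aged and 94.9 CPM in 26 young dendritic-like cells, its highest class in both libraries. The fold calls for Adam2 and Adam28 in fibroblast-like cells rest on 70 and 63 aged and 18 and 7 young UMIs, and that for Adam30 in neutrophil-like cells on 45 aged and 40 young UMIs.

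The ADAMTS genes were led by Adamts1, which cuts versican and aggrecan, with 677 CPM in aged and 651 CPM in young fibroblast-like cells. Its ratio of 1.04 became 0.977 under TMM scaling, so no direction is given. Adamts5, the main aggrecanase of mice, had 503 CPM in aged and 398 CPM in young fibroblast-like cells, a ratio of 1.27 (1.25 to 1.29). Adamts2, which removes the amino-terminal propeptide of procollagens, had 208 CPM in aged and 276 CPM in young fibroblast-like cells, a ratio of 0.751. Adamts15 was the abundant ADAMTS gene with the lowest ratio, at 16.6 CPM in aged and 30.2 CPM in young fibroblast-like cells (0.548, from 0.511 to 0.588), and the aged level was below the young one in all 8 clusters compared. Adamts9, a versicanase, had 76.9 CPM in aged and 44.99 CPM in young fibroblast-like cells, a ratio of 1.71 (1.64 to 1.79).

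Fewer cells stood behind the other ADAMTS calls. Adamts19 had 458 aged and 222 young UMIs in fibroblast-like cells, a ratio of 1.89, but 1.29 with clusters weighted equally, and 10 cells held 59.0% of the young UMIs. Adamts8 and Adamts20 had 111 and 79 aged and 32 and 18 young UMIs, with 65.8% and 68.3% of the aged ones in 10 cells. Adamts6 had 139 UMIs in aged and 50 in young macrophage-like cells, a ratio of 2.32 (1.67 to 3.27).

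ADAMTS genes were prominent in blood endothelial-like and pericyte-like cells. Adamts9 reached 1367 CPM in aged and 1042 CPM in young endothelial-like cells, where it was higher than any MMP or TIMP. Adamts1 had 669 and 515 CPM there, and Adamts4 had 405 and 515 CPM. In the 30 young pericyte-like cells the same genes were higher than in young endothelial-like cells, with 1272 CPM of Adamts9, 781 CPM of Adamts4 and 652 CPM of Adamts1. The aged library held only 5 pericyte-like cells, so no aged level is given. Lymphatic endothelial-like cells had instead much Timp3, with 201 UMIs in 6 aged and 951 UMIs in 21 young cells, which is 1443 CPM in the young library.

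Partners of these enzymes were followed in 7 lists of activators, other inhibitors, surface partners, sheddase regulators, procollagen-processing proteins, ADAMTS-like proteins and shed ligands. Over all genes tested, 11.6% were called higher and 8.33% lower in fibroblast-like cells. The shares were 19.7% and 5.83% in macrophage-like cells, and 22.5% and 11.2% in neutrophil-like cells. The lists are short, so their counts are not read as results about a list. No share over all genes is given under TMM scaling. In fibroblast-like cells 1 of 5 activators tested was called higher and none lower. This was Plau, urokinase, which activates plasminogen and through it proMMPs, with 282 CPM in aged and 154 CPM in young cells, a ratio of 1.83 (1.79 to 1.87). Of 8 inhibitors other than TIMPs, 3 were called higher and 1 lower there. Reck, a membrane-anchored MMP inhibitor, had 16.9 CPM in aged and 17.3 CPM in young fibroblast-like cells. None of the 6 surface partners was called in fibroblast-like or macrophage-like cells. In neutrophil-like cells 2 of 6 were called higher, Cd44 and Cd63. Cd63, the tetraspanin that binds Timp1, had 669 CPM in aged and 294 CPM in young cells, a ratio of 2.27. The ratio of Cd44, 1.56, became 1.32 under TMM scaling, which left 1 of the 6 higher and made 1 lower. The same scaling made 1 of the 6 lower in macrophage-like cells.

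The shed ligands Tnf, Areg and Ereg were lower in both aged myeloid classes. Of the 7 shed ligands and receptors tested in neutrophil-like cells these 3 were called lower and none higher, against 11.2% and 22.5% of all genes. Of the 7 tested in macrophage-like cells the same 3 were lower and 2 others, Notch1 and Il6ra, were higher. There 5.83% of all genes were called lower and 19.7% higher. The calls of Notch1 (1.502) and Il6ra (1.67) were lost under TMM scaling, at 1.28 and 1.43. Tnf, shed by Adam17, had 1055 CPM in aged and 2422 CPM in young neutrophil-like cells, a ratio of 0.436. Areg, the EGF receptor ligand amphiregulin, had 171 CPM in aged and 328 CPM in young macrophage-like cells, a ratio of 0.522. Ereg, epiregulin, had 443 CPM in aged and 958 CPM in young fibroblast-like cells, a ratio of 0.462, whereas Adam17 itself had a ratio of 0.981 there. In the aged and the young library Ereg had only 23.7 and 44.0 CPM in macrophage-like and 6.53 and 32.4 CPM in neutrophil-like cells. The part of carried-over RNA in these myeloid values was not tested. Of the 7 sheddase regulators tested in fibroblast-like cells, 2 were called lower, against 8.33% of all genes. Tspan5, which escorts Adam10, had 132 CPM in aged and 217 CPM in young cells, and Tspan15 had 13 and 22 UMIs. Tspan5 went the other way in macrophage-like and neutrophil-like cells, with ratios of 1.47 and 1.43, neither past 1.5-fold. Bmp1, the carboxy-terminal procollagen proteinase, had 404 and 423 CPM in aged and young fibroblast-like cells.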

How the data were processed

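Cells of 2 wound samples, 1 per age, were profiled by droplet 3′ sequencing after collagenase and dispase digestion, per the labels, which give the kit's version in one place as 3 and in another as 3.1. The deposited values are unnormalized UMI counts from Cell Ranger, whose version is 8.0.1 per the file headers, whereas the submitters' processing notes give 9.0 and also name STAR, Seurat 4, GRCm38 and mm10. Whether counting used strand is not given in the sources used here. No doublet caller was run, cells scoring for a second class were left out as an alternative, and 3 barcodes occur in both libraries.

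Barcodes with at least 500 UMIs, at least 200 genes and at most 15% mitochondrial UMIs were kept. Each cell took the class whose marker list scored highest, with at least 2 markers detected and a lead of 0.05 over the next list. The scoring was settled after its match with clusters had been seen. Clusters came from 2000 variable genes without the members, 30 components, 15 neighbours and a Leiden resolution of 1.0 (scanpy 1.11.5, igraph 0.11.9). CPM were computed per class and library. Poisson, conditional binomial and Clopper-Pearson 95% intervals used scipy 1.17.1, and TMM factors used edgeR 4.0.16. No test was run, because each age has 1 library. Ratios are given for classes with at least 100 cells per library and for genes with at least 20 UMIs over both, and levels for classes with at least 20 cells. The code was tested on simulated data. The members, marker lists and partner lists were chosen with earlier results of these data known. Values are given by rule for the TIMPs, for the 3 members with the most UMIs in each subfamily, and for members whose interval lies beyond 1.5-fold in a class, with at least 50 UMIs and at least 20% of the level of their highest class there. Adam17, Adam23, Adamts4, Adamts9 and Mmp1a, and the partners described, were named after their values were seen. Some genes are not reported here.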

Additional observations from a re-analysis of the deposited data

How the results depend on the processing

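No paired analysis was possible because each age has 1 library and no replicate numbers are shared. With 1 library per age, leaving one out ends the comparison. Raising the fold to 2 left 4 members higher and 6 lower in fibroblast-like cells, 4 and 3 in macrophage-like cells, 1 higher in neutrophil-like cells, and 7 higher and 7 lower over all kept cells. Asking for 100 UMIs left 5 higher in fibroblast-like cells, 3 in macrophage-like cells and 9 over all kept cells. With 1 UMI enough, 25 were higher and 12 lower in macrophage-like cells, and 16 higher and 19 lower in neutrophil-like cells. TMM scaling gave 12 lower in macrophage-like and 2 higher in neutrophil-like cells, and Leiden clusters in place of the gate gave 11 and 6 lower in these classes. No share over all genes is given at these settings, so the counts stand without a background. Of the summary values, 52 stayed within their limits and 18 moved, and of the others 642 stayed, 397 moved and 17 reversed.

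Reversed under TMM scaling were Adamts1 in fibroblast-like cells (0.977), the summed TIMPs (0.996) and ADAMs (0.949) in macrophage-like cells, and Mmp9 in neutrophil-like cells (0.991). With fibroblast clusters weighted equally, Mmp27 (1.03) and Mmp9 (0.761) reversed. In whole clusters Mmp9 of fibroblasts (0.939) and Mmp12 (24.0), Mmp19 (1.20) and Timp1 (2.43) of neutrophils did. Timp1 in neutrophil-like cells was also 1.34 as a mean of per-cell levels and 1.64 without the top 10 cells. Mmp10 in macrophage-like cells was 1.66 without the top 10 cells, and Mmp13 in neutrophil-like cells was 0.747 when every cell took its best list. As means of per-cell levels over all kept cells, Mmp13 (1.42), Mmp1b (1.24) and Timp2 (1.04) reversed. The cause of these shifts was not tested. Weighting clusters equally, removing cluster 13, assigning every cell to its best list, TMM scaling of the partners, and leaving out Timp1 or Mmp3 were chosen after seeing the data. Depth limits the members under 20 UMIs and the classes under 100 cells.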
